A study of Mus musculus with 8 samples.

Results

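The proteasome genes were the protein-coding genes of the expression table whose symbol had the form Psma, Psmb, Psmc, Psmd, Psme, Psmf or Psmg followed by a number. The GENCODE annotation of the mouse holds 49 such genes, and 47 of them had a row among the 17127 genes of the table. Psmb11, the catalytic subunit of the thymus, and Psme2, which encodes one of the subunits of the 11S activator, had no row and are not analysed here. The samples were whole adult testes of mice, profiled by bulk RNA-seq. The 4 wild-type libraries were compared with 3 libraries from Iqch-/- testes, numbered 1, 2 and 4, and the library of mutant 3 is not analysed here. The mutant mice were homozygous for a small CRISPR-Cas9 deletion within an exon of Iqch, a testis gene that encodes an IQ motif protein, and carried it in every cell of the body. The study's RNA-seq coverage is given for 1 edited line, Iqch mu7, which the labels do not name. All mice were males of 4 months by the study's methods, each library came from 1 testis sample, and no other allele or treatment was given for either group.

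The proteasome is the large protease that degrades proteins tagged with ubiquitin. Its barrel, the 20S core, is built of outer rings of alpha subunits, which gate the entrance, and inner rings of beta subunits, 3 kinds of which cut peptide bonds. The 19S cap unfolds ubiquitin-tagged proteins with a ring of ATPases (the Psmc genes) and receives and deubiquitinates them with non-ATPase subunits (most of the Psmd genes). Interferon-responsive cells can swap the constitutive catalytic subunits Psmb5, Psmb6 and Psmb7 for Psmb8, Psmb9 and Psmb10, which gives the immunoproteasome, known for producing peptides that fit MHC class I molecules. Germ cells of the testis use forms of their own. Psma8 is a meiotic alpha subunit that takes the place of Psma7, and Psme4 (PA200) is a nuclear activator known from histone removal in spermatids.

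Promoters of Psmb8, Psmb9, Psme1 and Psmb5 are printed because they belong to the genes on which the comparison of constitutive and interferon-linked forms rests. They were taken from the RefSeq promoter table of build GRCm38.p6, cover 250 bases before to 50 bases after the annotated start, and read 5′ to 3′ on the strand of the gene. Capitals mark a match to one of the motifs described after them.
Psmb8 (chr17:34197945-34198244, + strand): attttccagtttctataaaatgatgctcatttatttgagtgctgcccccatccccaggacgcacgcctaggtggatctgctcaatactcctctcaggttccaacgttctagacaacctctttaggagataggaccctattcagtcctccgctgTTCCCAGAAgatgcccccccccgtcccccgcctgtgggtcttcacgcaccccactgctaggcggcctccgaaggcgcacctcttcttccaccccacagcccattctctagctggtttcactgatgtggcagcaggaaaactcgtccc
Psmb9 (chr17:34187281-34187580, - strand): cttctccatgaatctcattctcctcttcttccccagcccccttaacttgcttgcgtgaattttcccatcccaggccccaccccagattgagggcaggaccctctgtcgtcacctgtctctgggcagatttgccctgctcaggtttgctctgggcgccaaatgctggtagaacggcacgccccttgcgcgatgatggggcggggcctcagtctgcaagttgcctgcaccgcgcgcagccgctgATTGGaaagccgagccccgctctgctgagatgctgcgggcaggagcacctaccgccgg
Psme1 (chr14:55578244-55578543, + strand): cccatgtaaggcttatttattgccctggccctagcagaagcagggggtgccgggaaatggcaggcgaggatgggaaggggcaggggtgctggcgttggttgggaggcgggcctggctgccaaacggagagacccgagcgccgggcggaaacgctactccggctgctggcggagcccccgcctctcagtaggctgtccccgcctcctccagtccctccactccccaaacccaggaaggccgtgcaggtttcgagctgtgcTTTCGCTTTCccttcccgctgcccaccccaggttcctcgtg
Psmb5 (chr14:54617946-54618245, - strand): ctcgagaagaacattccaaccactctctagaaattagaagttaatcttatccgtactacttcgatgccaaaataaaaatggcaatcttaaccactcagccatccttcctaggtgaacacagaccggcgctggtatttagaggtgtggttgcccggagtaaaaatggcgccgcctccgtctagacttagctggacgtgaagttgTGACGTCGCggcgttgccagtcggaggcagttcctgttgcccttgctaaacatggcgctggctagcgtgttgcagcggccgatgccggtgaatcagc

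Capitals in the Psmb8 promoter mark TTCCCAGAA, a match to the STAT site GAS (TTCNNNGAA), 97 bases before the start. Capitals in the Psme1 promoter mark TTTCGCTTTC, a match to the interferon-stimulated response element (ISRE, TTTC, any 2 bases, TTTC), 9 bases after the start. In the Psmb5 promoter they mark TGACGTCGC, a match to the core of the antioxidant response element (ARE, TGACNNNGC), 47 bases before the start, the element read by the factors Nfe2l1 and Nfe2l2. In the Psmb9 promoter they mark a CCAAT box, read on the other strand, 8 bases before the start. Both strands of 32851 promoter windows were searched, and 39 of the 47 genes had a window. The GAS letters were found in 8.3% of all windows and in 3 of the 39 proteasome genes, Psmb8, Psmd2 and Psmg1. The ISRE letters were found in 3.44% of all windows and in 5 of the 39, Psme1, Psmb3, Psmd4, Psmd9 and Psmg4. The ARE core was found in 12.4% of all windows and in 6 of the 39, Psmb5, Psmb6, Psmc6, Psmd9, Psmd12 and Psme4. The CCAAT box was found in 37.4% of all windows and in 13 of the 39, while the CRE letters TGACGTCA were found in 1.79% of all windows and in 0 of the 39. The motifs were searched separately, a window may hold more than 1, and a match describes letters and is not evidence of binding.

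Values are CPM, the read count of a gene scaled so that each library has the same total, and a change is the difference of the group means of log2(CPM + 0.1), mutant minus wild type, tested with limma across 17126 genes with Benjamini-Hochberg adjustment (FDR) and called below 0.01. All 47 proteasome genes passed the low-value filter of 2.2 CPM in 2 or more libraries of a group. Psmb8 and Psmb9 passed it through the mutant libraries alone, so those 2 genes could enter the test only by being higher in the mutants. In the mutant testes 19 of the 47 genes were called higher, 5 were called lower and 23 were not called. Among all tested genes 36.3% were called higher and 14.2% lower, and among the 13784 protein-coding genes 41.5% and 12.7%. The median change of the 47 genes was 0.16, beside 0.12 over all genes and 0.18 over protein-coding genes. The counts and the median over the whole family were near the background, and the changes of single genes ran from -0.35 to 1.85.

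A second scaling bore on the calls. When the CPM values were divided by median-of-ratios size factors (0.957 to 0.963 in the wild-type and 1.04 to 1.07 in the mutant libraries), the median of all genes fell from 0.12 to -0.01, a shift of 0.13 on the log2 scale. With size factors 13 of the 47 genes were called higher and 11 lower, beside 27% and 25.1% of all genes. The 13 genes called higher under both scalings were Psma1, Psma2, Psma7, Psmb1, Psmb2, Psmb3, Psmb5, Psmb8, Psmb9, Psmb10, Psmd5, Psme1 and Psme2b. The 5 called lower under both were Psma6, Psma8, Psmc2, Psmc3 and Psmf1. Psmb4, Psmc4, Psmd3, Psmd7, Psmd11 and Psmd14 were called higher in the CPM values and not called with size factors. Psmb6, Psmb7, Psme4, Psmd2, Psmd8 and Psmg4 were not called in the CPM values and were called lower with size factors. Every mutant library lay above every wild-type library for 26 of the 47 genes and below for 7, beside 42.8% and 19.5% of all genes, and the groups overlapped for 14.

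**Figure D1:**
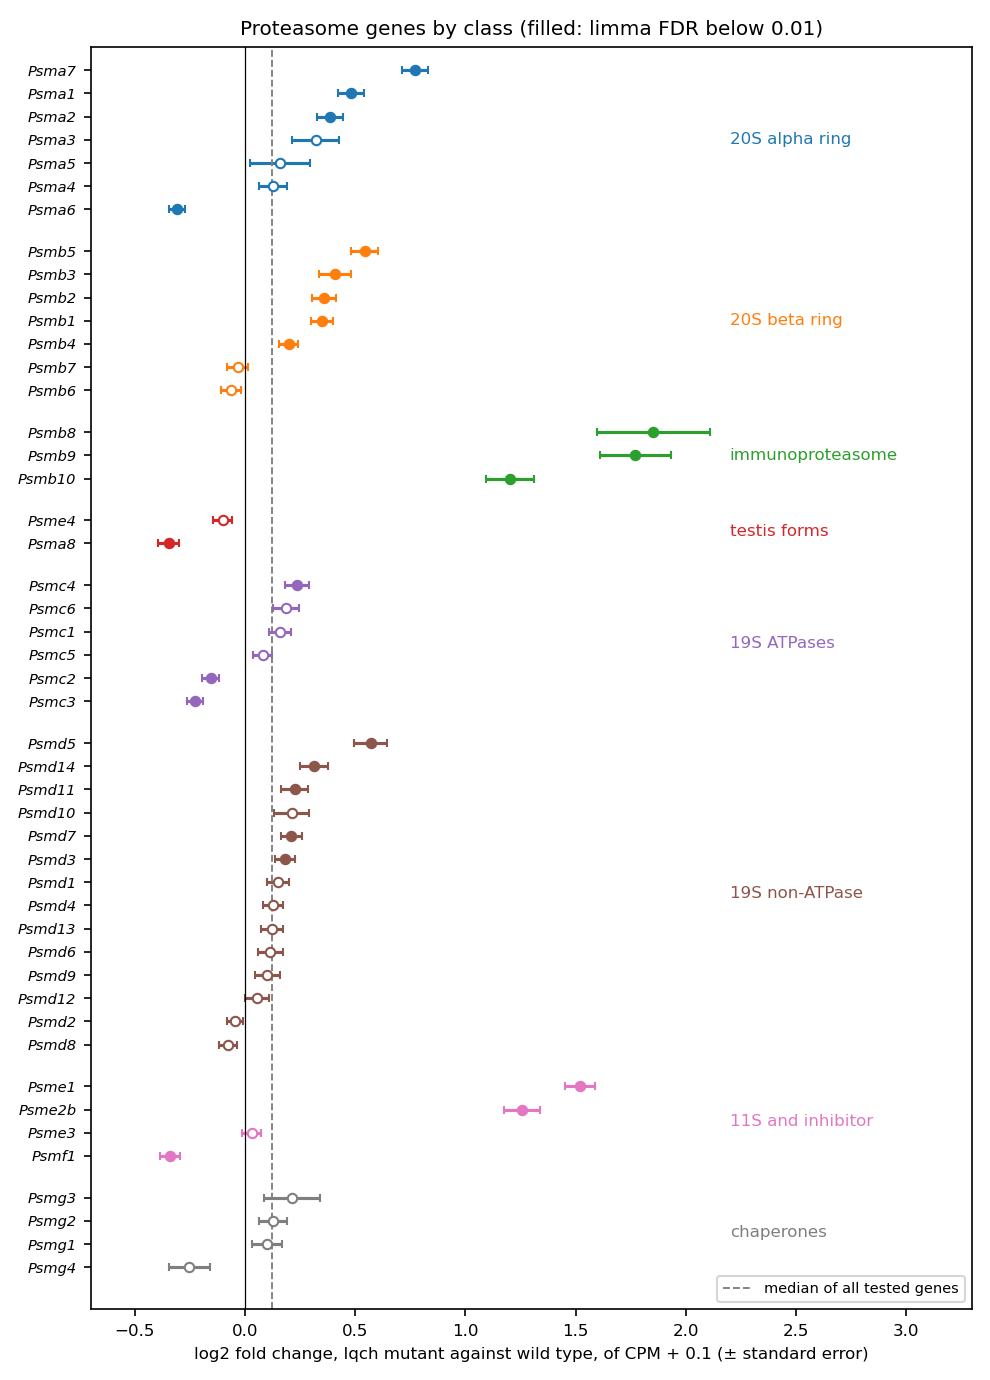
Log2 fold change (mutant against wild type, of CPM + 0.1) of the 47 proteasome genes, grouped by class; points are estimates, bars are ± 1 standard error from limma with 4 wild-type and 3 mutant libraries, and filled points passed an FDR of 0.01. The 3 immunoproteasome genes, Psme1 and Psme2b lie between 1.20 and 1.85, while every other gene lies between -0.35 and 0.77.

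The immunoproteasome subunits and the 11S genes Psme1 and Psme2b had the largest changes of the family. Psmb8, Psmb9, Psmb10, Psme1 and Psme2b were all called higher under both scalings, with log2 changes from 1.20 to 1.85, while every other gene of the family stayed within -0.35 to 0.77. Psmb8 and Psmb9 passed the low-value filter, which was the same for both scalings, through the mutant libraries alone. They could enter either test only by being higher. All 5 genes had each mutant library above each wild-type library. In bulk tissue, more cells of a type and more RNA per cell cannot be told apart.

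Psmb8 (beta5i, ENSMUSG00000024338, GRCm39 chromosome 17, 34416690 to 34420428) replaces the chymotrypsin-like subunit Psmb5. Its CPM was 0.898, 1.22, 0.791 and 1.94 in the wild-type libraries and 4.77, 4.80 and 3.72 in the mutants. The lowest mutant library was above the highest wild-type library, and wild type 4 stood above the other wild-type libraries. The mean was 1.21 ± 0.52 CPM (SD, n = 4) in wild type and 4.43 ± 0.62 (SD, n = 3) in the mutants, a log2 change of 1.85 (SE 0.26, limma FDR 4.3e-05). Psmb9 (beta1i, chromosome 17, 34400960 to 34406738), which replaces Psmb6, measured 0.957, 1.11, 0.943 and 1.09 CPM in wild type and 3.62, 3.65 and 3.93 in the mutants. The libraries of each group were close together and the groups were far apart, with a log2 change of 1.77 (SE 0.16, limma FDR 1.1e-06). Psmb9 shares 743 exon bases, 19.6% of its annotated exon length, with the peptide transporter gene Tap1 on the opposite strand. Tap1 was itself called higher (log2 change 1.70), and without strand in the counting the reads of the shared bases cannot be assigned to either gene. Psmb10 (beta2i, chromosome 8, 106662362 to 106665077), which replaces Psmb7, measured 5.30, 5.83, 4.41 and 5.14 CPM in wild type and 11.7, 12.7 and 11.5 in the mutants. Its groups were apart as well, with a log2 change of 1.20 (SE 0.11, limma FDR 1.0e-06).

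The 11S activator (PA28) is a ring that opens the core without ubiquitin, made in its interferon-responsive form of Psme1 and Psme2. Psme1 (chromosome 14, 55815190 to 55822034) measured 10.8, 11.1, 10.8 and 11.9 CPM in wild type and 31.5, 33.3 and 31.9 in the mutants. Both groups were tight and far apart, with a log2 change of 1.52 (SE 0.07, limma FDR 3.7e-09, the lowest of the 47 genes). Psme1 shares 39.6% of its annotated exon bases with Emc9 on the opposite strand, a gene at 3.44 CPM in wild type. Psme2b, an intronless relative of Psme2 on chromosome 11 (48836181 to 48837017), measured 11.04, 10.4, 11.9 and 12.2 CPM in wild type and 27.9, 28.9 and 25.2 in the mutants, a log2 change of 1.26 (SE 0.08, limma FDR 5.7e-08). Its transcript is 99.4% identical over 795 bases to that of Psme2, which had no row, so reads of either gene could have been counted under Psme2b. Psme3, the nuclear PA28 gamma, measured 116, 113, 111 and 117 CPM in wild type and 120, 118 and 112 in the mutants. Those groups overlapped (log2 change 0.03, SE 0.04, limma FDR 0.55), and the sign turned with size factors (-0.10, FDR 0.06).

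**Figure D2:**
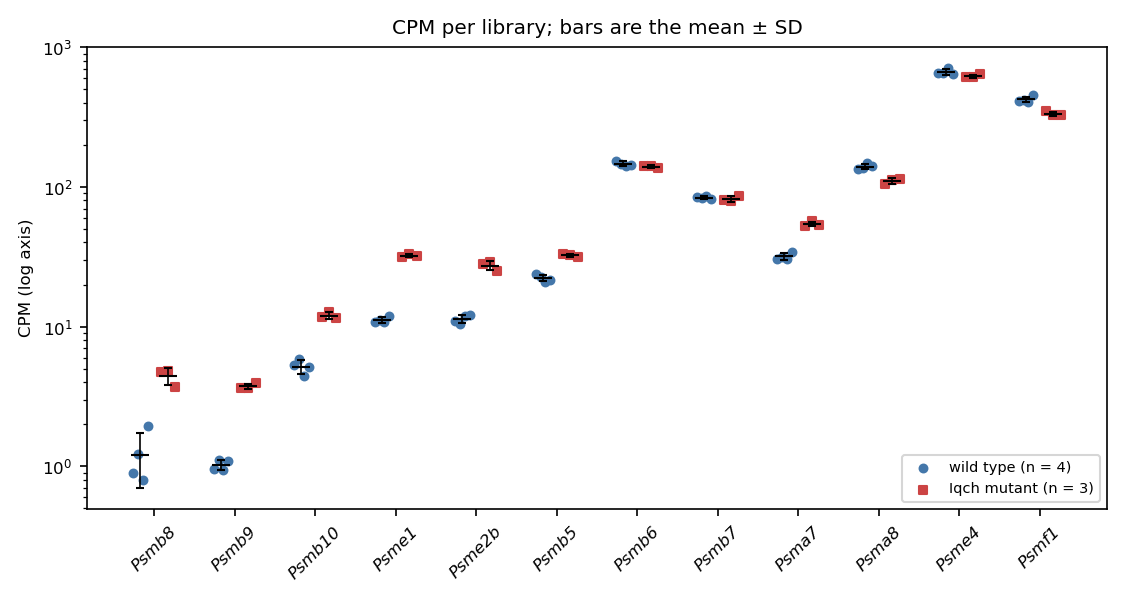
CPM (log axis) of 12 proteasome genes in each of the 4 wild-type libraries (circles) and 3 mutant libraries (squares); black bars are the mean ± SD. Psmb8, Psmb9, Psmb10, Psme1, Psme2b, Psmb5 and Psma7 have every mutant library above the wild-type libraries, Psma8, Psme4 and Psmf1 have every mutant library below, and Psmb6 and Psmb7 overlap.

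Of the constitutive subunits that the immuno forms replace, Psmb6 and Psmb7 were not called in the CPM values and Psmb5 was called higher. Psmb6 (beta1) measured 154, 147, 140 and 144 CPM in wild type and 142, 142 and 136 in the mutants, with overlapping groups (log2 change -0.06, SE 0.04, limma FDR 0.22). Psmb7 (beta2) measured 84.9, 82.9, 86.0 and 81.6 CPM in wild type and 80.2, 79.4 and 86.1 in the mutants, with overlapping groups (log2 change -0.03, SE 0.05, limma FDR 0.54). With size factors both genes were called lower, at -0.20 and -0.17. Nek6 exons on the opposite strand cover 46.8% of the annotated exon bases of Psmb7, and Nek6 was at 4.36 CPM in wild type.

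Psmb5 (beta5, chromosome 14, 54850776 to 54855481) measured 23.7, 22.5, 20.9 and 21.7 CPM in wild type and 33.0, 32.4 and 31.7 in the mutants. The groups were apart and the gene was called higher, with a log2 change of 0.54 (SE 0.06, limma FDR 8.3e-06). That value depends on how reads were assigned, because the processed pseudogene Gm3375 is a near-identical copy of Psmb5 and moved the other way. Gm3375 measured 42.8, 39.8, 41.1 and 42.2 CPM in wild type and 23.4, 26.2 and 23.7 in the mutants, a log2 change of -0.76 (SE 0.06, limma FDR 3.1e-07). The sum of Psmb5 and Gm3375 was 63.7 ± 2.04 CPM (SD, n = 4) in wild type and 56.8 ± 1.66 (SD, n = 3) in the mutants, -0.17 on the log2 scale. The direction of Psmb5 thus turned when its copy was added, and the reads of the pair are uncertain.

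Levels of a replacement subunit and its partner were compared per kilobase of the canonical transcript, as a description without a test. Psmb8 stood at 5.48 ± 2.43% of Psmb5 (SD, n = 4) in wild type and 13.7 ± 1.68% (SD, n = 3) in the mutants, and with the union of all exons as length the means were 2.88% and 7.18%. Psmb8 as a percentage of the CPM of Psmb5 and Gm3375 together was 1.91 ± 0.82 in wild type and 7.79 ± 0.94 in the mutants, so the mutants were higher with and without the copy. Psmb9 stood at 0.537 ± 0.051% of Psmb6 in wild type and 2.05 ± 0.15% in the mutants. Psmb10 stood at 5.46 ± 0.69% of Psmb7 in wild type and 13.0 ± 1.17% in the mutants, and with the union of all exons as length the means were 21.5% and 51.0%. The immuno forms were the minor form at these levels in both groups. The 3 immuno genes summed to 7.41 ± 0.97 CPM in wild type and 20.1 ± 1.01 in the mutants, in a family whose members summed to 5210 ± 28.4 and 5069 ± 16.4 CPM.

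**Figure D3:**
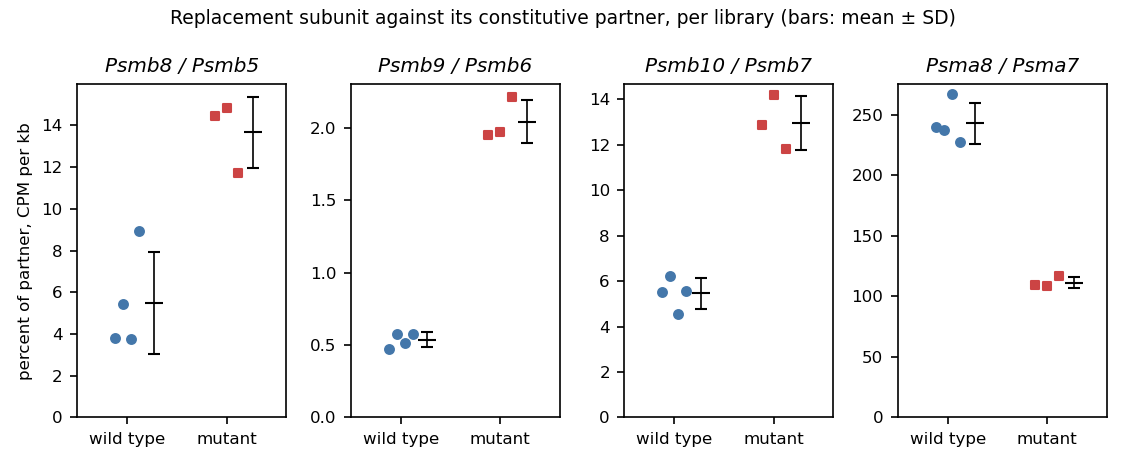
Level of a replacement subunit as a percentage of its constitutive partner (CPM per kilobase of canonical transcript), 1 point for each library, bars the mean ± SD of 4 wild-type and 3 mutant libraries; each panel has its own axis from 0. Each of the 3 immuno subunits is higher against its partner in every mutant library, and Psma8 is at 243% of Psma7 in wild type and 111% in the mutants (146% and 66.9% with the union of all exons as length).

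Values for immune cells and interferon-responsive genes moved with the immuno subunits. Of a list of 20 interferon and antigen presentation genes 16 had a row, 14 were called higher and 0 lower, beside 36.3% and 14.2% of all genes. With size factors 13 were higher and 1 was lower, beside 27% and 25.1%. Of the 14 genes, 5 passed the low-value filter through the mutant libraries alone, Ube2l6, Tap1 and Tap2 among them, and could enter the test only by being higher. The list includes Ube2l6, an ISG15-conjugating enzyme (2.17), the transcription factors Irf8 (1.70) and Irf1 (1.16), the transporters Tap1 (1.70) and Tap2 (1.62), and B2m, the light chain of MHC class I (1.40). Nlrc5, the class I transactivator, had overlapping groups and was not called in the CPM values (-0.47, limma FDR 0.031). With size factors it was the 1 gene of the list called lower (-0.60, limma FDR 0.0077). Ciita, Isg15, Ifit1 and Ifit3 had no row. All 8 macrophage and dendritic cell markers were called higher, and their sum was 95.5 to 105 CPM in wild type and 292 to 355 in the mutants. Among the lymphocyte markers Ptprc, which all leukocytes carry, was called higher and had passed the filter through the mutants alone, while the defining T and NK markers Cd3e, Cd3g, Cd4, Cd8a and Nkg7 and the B cell marker Cd79a had none. Sertoli markers were called higher for 7 of 7 with a row (5 with size factors), and Leydig markers for 7 of 8 (7 with size factors). The shares of all genes were 36.3% and, with size factors, 27%. Endothelial and peritubular myoid markers were mixed. For endothelial cells 3 of 7 with a row were higher and 0 lower (3 and 1 with size factors). For peritubular myoid cells 3 of 7 with a row were higher and 1 lower under both scalings. The part of these cells in the rise of Psmb8, Psmb9, Psmb10, Psme1 and Psme2b was not tested.

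Of the testis forms Psma8 was called lower in the mutants under both scalings, and Psme4 with size factors only. Psma8 (chromosome 18, 14839184 to 14904059) measured 133, 136, 148 and 142 CPM in wild type and 104, 112 and 114 in the mutants. All 3 mutant libraries were below all 4 wild-type libraries, and the log2 change was -0.35 (SE 0.05, limma FDR 5.5e-05). Psma7, the alpha4 subunit that Psma8 replaces, measured 30.6, 31.7, 30.5 and 34.4 CPM in wild type and 52.6, 56.8 and 53.8 in the mutants. It had the largest rise of the constitutive core, at 0.77 (SE 0.06, limma FDR 2.5e-07). Per kilobase of canonical transcript Psma8 was 243 ± 16.9% of Psma7 in wild type (SD, n = 4) and 111 ± 4.37% in the mutants (SD, n = 3). With the union of all exons as length the means were 146% and 66.9%, so which of the pair was higher in the mutants depends on the length used. The fold by which the ratio fell is the same under any length by arithmetic, since each gene has 1 length in all libraries. Psme4 (chromosome 11, 30721725 to 30830376) measured 656, 654, 710 and 644 CPM in wild type and 611, 610 and 640 in the mutants. The mutants were below the wild types in each library, by a small margin between mutant 4 and wild type 4, and the change of -0.10 (SE 0.04) was not called (limma FDR 0.051). With size factors it was called lower, at -0.24. Psmf1 (PI31), known as an inhibitor of the core in the test tube, measured 413, 418, 409 and 452 CPM in wild type and 348, 328 and 325 in the mutants. It was called lower, with a log2 change of -0.34 (SE 0.04, limma FDR 2.8e-05).

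Germ cell markers moved as well, in both directions. Of 8 spermatogonia markers 4 were called higher and 0 lower, beside 36.3% and 14.2% of all genes. With size factors 1 was higher and 0 lower, beside 27% and 25.1%. Their sum was 243 to 258 CPM in wild type and 299 to 342 in the mutants. All 8 elongating spermatid markers were called lower, with sums of 22713 to 23990 CPM in wild type and 14394 to 16551 in the mutants, and 5 of 8 round spermatid markers were called lower (8 with size factors), beside 14.2% of all genes (25.1% with size factors). Of 8 spermatocyte markers 1 was called higher and 1 lower, and with size factors 0 and 4, with CPM sums of 1016 to 1042 CPM in wild type and 944 to 1014 in the mutants. Their part in the values of Psma8, Psme4 and Psmf1 was not tested.

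In the constitutive 20S rings 8 of 14 genes were called higher and 1 lower, beside 36.3% and 14.2% of all genes, with a median change of 0.34. With size factors 7 were higher and 3 lower, beside 27% and 25.1%, with a median of 0.20. Without Psmb5, whose direction turned with its copy, 7 of 13 were called higher and 1 lower. In the alpha ring Psma7, Psma1 (0.48) and Psma2 (0.38) were called higher, Psma3, Psma4 and Psma5 were not called, and Psma6 was called lower. Psma6 (alpha1, chromosome 12, 55431007 to 55467094) measured 415, 425, 402 and 407 CPM in wild type and 341, 324 and 334 in the mutants. Its groups were far apart for their spread, with a log2 change of -0.31 (SE 0.04, limma FDR 1.5e-05), and it was the one gene of the ring with a negative change in the CPM values. In the beta ring Psmb5, Psmb3 (0.41), Psmb2 (0.36), Psmb1 (0.35) and Psmb4 (0.20) were called higher and none lower. The sum over the 14 ring genes was 1007 ± 15.6 CPM in wild type (SD, n = 4) and 1021 ± 2.39 in the mutants (SD, n = 3), with means of 412 and 333 CPM from Psma6 alone. The levels within a ring were unequal although each subunit enters it in equal number. Per kilobase of canonical transcript the wild-type alpha ring ran from 2.06 CPM for Psma3 to 396 for Psma6, a 192-fold range. The low end is uncertain, since Psma3 measured 7.39 CPM alone and 77.6 CPM with its copy Gm13835. The beta ring ran from 7.97 for Psmb2 to 141 for Psmb6.

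The 20 genes counted with the 19S cap were taken by symbol, assembly chaperones such as Psmd5 included. Of these, 6 were called higher and 2 lower, with a median of 0.14. These shares were no more than the 36.3% and 14.2% of all genes. With size factors 1 was higher and 4 lower, beside 27% and 25.1%, with a median of 0.00. Among the ATPases Psmc4 (Rpt3) had the highest change. It measured 43.5, 44.7, 40.6 and 42.5 CPM in wild type and 49.5, 53.2 and 48.5 in the mutants, without overlap (0.23, SE 0.06, limma FDR 0.0026), and the call was lost with size factors and when mutant 2 was left out (0.20). Psmc3 (Rpt5) had the lowest, at 688, 685, 657 and 655 CPM in wild type and 591, 558 and 570 in the mutants. It was called lower (-0.23, SE 0.04, limma FDR 0.0002), as was Psmc2 (Rpt1, -0.16). The call of Psmc2 was lost when wild type 1, wild type 2, mutant 2 or mutant 4 was left out, with values between -0.15 and -0.14. Smarcd2 exons on the opposite strand cover 39.5% of the exon bases of Psmc5. The wild-type mean was 62.1 CPM for Smarcd2 and 109 CPM for Psmc5.

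Among the 14 genes with a Psmd symbol, counted here as non-ATPase subunits, Psmd5 had the highest change. Psmd5 (S5b), a chaperone that holds the ATPase ring during assembly, measured 15.3, 17.8, 16.4 and 18.1 CPM in wild type and 24.3, 24.8 and 26.3 in the mutants. It was the only gene counted with the cap that was called higher under both scalings, at 0.57 (SE 0.07, limma FDR 2.6e-05). As an assembly chaperone it is counted there by its symbol. Psmd14 (Rpn11), the deubiquitinase of the lid, Psmd11, Psmd7 and Psmd3 were called higher by 0.18 to 0.31 in the CPM values. The calls of Psmd3, Psmd7 and Psmd11 were lost when single libraries were left out. For Psmd11 this was so without wild type 2 (0.22), wild type 4 (0.18), mutant 1 (0.22), mutant 2 (0.24) or mutant 4 (0.21). For Psmd3 it was so without wild type 2 (0.17), mutant 1 (0.15) or mutant 4 (0.18), and for Psmd7 without mutant 2 (0.17). Psmd8 (Rpn12) had the lowest change, at 312, 311, 297 and 317 CPM in wild type and 305, 290 and 285 in the mutants, with overlapping groups (-0.08, SE 0.04, limma FDR 0.12). The genes counted with the cap summed to 2765 ± 39.5 CPM in wild type and 2718 ± 14.9 in the mutants.

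None of the 4 assembly chaperones of the core was called in the CPM values. Psmg3 (PAC3) measured 3.89, 4.40, 3.93 and 4.93 CPM in wild type and 5.32, 4.46 and 5.13 in the mutants, with overlap (0.21, SE 0.13, limma FDR 0.16). Psmg4 (PAC4) measured 8.89, 7.66, 8.19 and 8.97 CPM in wild type and 7.27, 6.92 and 6.94 in the mutants, without overlap (-0.25, SE 0.09, limma FDR 0.032). Psmg4 was called lower with size factors, at -0.39. Pomp, the maturation chaperone that carries no Psm symbol, was called higher, with 36.6 to 40.3 CPM in wild type and 50.5 to 54.8 in the mutants (0.45, SE 0.06, limma FDR 1.6e-05).

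Changes were also set beside the wild-type level in CPM. Of the 7 genes at 300 CPM or more (Psma6, Psme4, Psmc2, Psmc3, Psmd2, Psmd8 and Psmf1), 4 were called lower and 0 higher, with a median of -0.16. Among the 600 protein-coding genes at that level 65.5% were called lower, with a median of -0.21. Of the 5 genes between 100 and 300 CPM, 1 was called lower and 0 higher (median 0.03), beside 33.3% and 12.6% of protein-coding genes (median -0.10). Of the 19 proteasome genes between 30 and 100 CPM, 9 were called higher and 0 lower (median 0.18), beside 34.5% and 12.1% of protein-coding genes of that level (median 0.08). Of the 9 between 10 and 30 CPM, 7 were called higher and 0 lower (median 0.48), beside 52.3% and 5.54% of protein-coding genes (median 0.28). Of the 7 under 10 CPM, 3 were called higher and 0 lower (median 0.32), beside 54.6% and 3.89% of protein-coding genes (median 0.50). Those 3 were Psmb8, Psmb9 and Psmb10, with changes of 1.20 or more, while Psma3 (0.32), Psmg3 (0.21), Psma5 (0.16) and Psmg4 (-0.25) were not called and lay below that median. The wild-type libraries enter both the level and the change, and the pattern is a description.

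**Figure D4:**
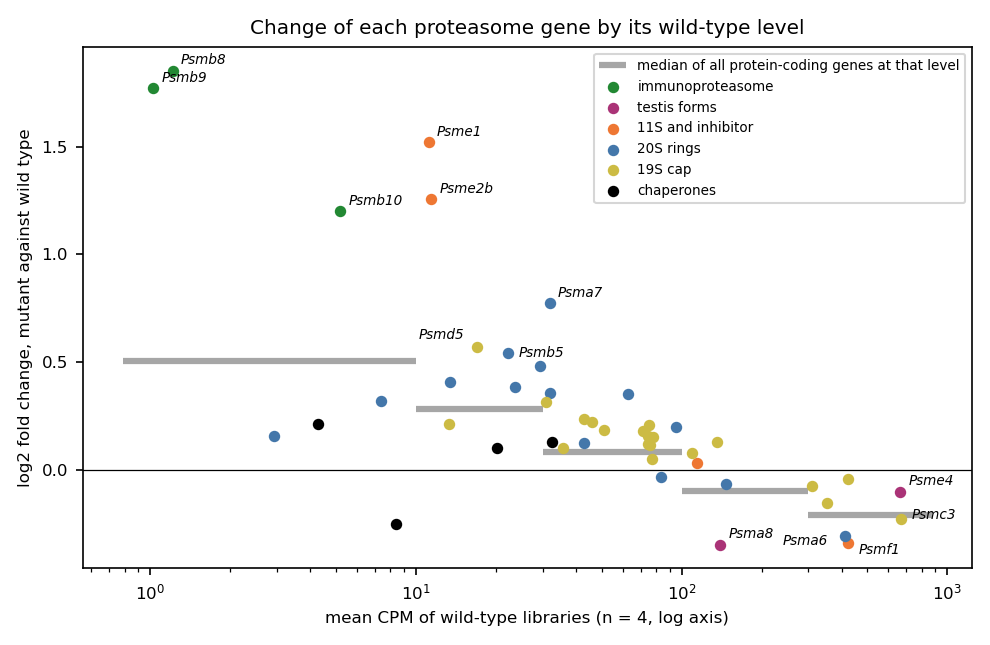
Log2 fold change of each of the 47 proteasome genes (mutant against wild type, of CPM + 0.1) against its mean CPM in the 4 wild-type libraries (log axis), coloured by class; grey bars are the median of all protein-coding genes at that level. The immuno subunits, Psme1 and Psme2b lie far above the bars, the 4 other genes under 10 CPM lie below the bar, and the 7 genes at 300 CPM and above are all negative.

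Near-identical copies limited a further group of subunits. A copy was an annotated transcript of another gene with at least 95% identity over 500 or more bases, and 9 of the 47 genes had at least 1, with 16 copies in all and 8 of them with a row. Psma5 was listed at a wild-type mean of 2.93 CPM beside 17.5 CPM for its copy Psma5-ps and 17.4 for Gm12989. The low levels of Psma3 and Psma5 are therefore uncertain, with Gm13835, a copy of Psma3, at 70.2 CPM. For 7 of the 9 genes a copy had a row and could be added. Summed with its copies, Psma3 changed by 0.12, Psma4 by 0.16, Psma5 by 0.17, Psmb3 by 0.43, Psmc1 by 0.15 and Psmd2 by -0.05. Psmb5 was the only one of the 7 whose sign differed between the gene alone and the sum. Exons of 24 of the 47 genes also share bases with another annotated gene, for 11 of them with one that had a row, and the setting for strand in the counting is not given in the sources used here.

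Genes that work with the proteasome were taken from 4 lists without Psm symbols, 39 genes in all. Of these 38 had a row, 16 were called higher and 7 lower, with a median of 0.17, close to the background. With size factors 13 were higher and 13 lower, beside 27% and 25.1% of all genes, with a median of 0.03. Among the 7 regulators of proteasome genes 5 were called higher and 1 lower, beside 36.3% and 14.2% of all genes, and with size factors 5 were higher and 2 lower. Nfe2l1, the factor that raises proteasome genes when the protease is inhibited, measured 86.8 to 93.2 CPM in wild type and 138 to 148 in the mutants (0.67, SE 0.04, limma FDR 7.6e-08). Nfe2l2, its relative in the oxidative stress response, measured 15.8 to 18.6 CPM and 33.2 to 35.9 (1.00, SE 0.07, limma FDR 1.5e-07). Stat3 was called higher, at 33.2 to 39.2 CPM in wild type and 76.8 to 82.5 in the mutants (1.16), as was Foxo4, at 8.60 to 9.54 and 17.3 to 18.1 (0.97). Ngly1, the glycanase that activates Nfe2l1, was called lower (-0.33).

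Of 15 ubiquitin shuttles and extraction factors 7 were called higher and 4 lower, beside 36.3% and 14.2% of all genes. With size factors 5 were higher and 6 lower, beside 27% and 25.1%. The shuttle Ubqln2 was called higher, at 14.9 to 16.5 CPM in wild type and 24.3 to 28.1 in the mutants (0.74, SE 0.07, limma FDR 2.3e-06), and the activating zinc finger protein Zfand5 rose as well, at 32.8 to 35.2 and 44.9 to 55.2 CPM (0.54). Ubqlnl, a ubiquilin of the testis, was called lower, at 315 to 326 CPM in wild type and 198 to 225 in the mutants (-0.59, SE 0.05, limma FDR 2.7e-07). Of 10 cap receptors and enzymes with a row 3 were higher and 1 lower (2 and 3 with size factors), beside the same shares of all genes. Of 6 genes of ubiquitin and its activation 1 was higher and 1 lower (1 and 2 with size factors), again beside those shares. At the cap, the deubiquitinase Usp14 was called higher, at 29.6 to 33.9 CPM in wild type and 35.5 to 37.9 in the mutants (0.21, limma FDR 0.0083), a call lost without wild type 1, 2 or 4 or any mutant library (0.18 to 0.23). The receptor Adrm1 measured 18.4 to 24.0 CPM in wild type and 23.0 to 24.6 in the mutants (0.15, limma FDR 0.16), and the deubiquitinase Uchl5 40.0 to 45.3 and 39.8 to 42.6 (-0.06, limma FDR 0.37). Both had overlapping groups. Iqch itself, the targeted gene, measured 193 to 217 CPM in wild type and 64.8 to 69.2 in the mutants (-1.63, SE 0.05, limma FDR 1.9e-10), in the direction of the labels in all 7 libraries.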

How the data were processed

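Whole adult testis of 4 wild-type and 4 Iqch-/- mice was sequenced, and 7 of the 8 samples had a column in the expression table. According to the study, the authors trimmed the paired reads with Trimmomatic, aligned them to GRCm39 with Subread, counted them per gene with featureCounts, removed low genes and deposited CPM, gene counts scaled to 1 total in every library. The annotation release and the settings for strand and multiple mapping are not given in the sources used here. All values of a library were whole multiples (tolerance 0.01) of 1 step; if a step is 1 read, depth was 32064384 to 37551057 reads.

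Gene identifiers were matched to GENCODE, and 17045 of 17127 were found. log2(CPM + 0.1) was fitted with limma 3.58.1 (R 4.3.3, trend) after a minimum of 2.2 CPM in 2 libraries of either group or more, and called at a Benjamini-Hochberg FDR under 0.01; this takes the place of the count tests of the authors because the deposited unit is CPM. The fit was tested on simulated data first. Copies were searched with BLAST+ 2.17.0. Libraries were separate samples by their labels, and n counts libraries. Every member could be named; values per library were given for the immuno subunits and their partners, Psma7, Psma8, the activators, Psmf1 and, in each other class, the genes with the highest and lowest change, and, of the pathway lists, ranges for called genes beyond 0.5 and for 6 set genes. Members, lists and rules were chosen with earlier results of these data known. Alternatives were other pseudocounts, minimums and scaling, a replicate block and leaving out each library.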

Additional observations from a re-analysis of the deposited data

Results flagged for a closer look

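In 2 of 58 wild-type groups tested, those of Psma3 and Psmg2, 1 library stood apart from the other 3 past the 95% limit of Dixon's test, and chance alone gives about 1 group in 20. Psma3 measured 8.44 CPM in wild type 1 and 6.91 to 7.17 CPM in the others. Without that library its change was 0.38 and was called, against 0.32 and no call with it. Psmg2, an assembly chaperone, measured 35.3 CPM in wild type 1 and 31.2 to 31.7 CPM in the others, and it was called in no setting.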

How the results depend on the processing

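With size factors 11 genes were called lower instead of 5, and the family median fell from 0.16 to 0.03, while 13 genes were called higher instead of 19. In that scaling 10 uncalled genes had the other sign, Psma4 (-0.0085), Psmc5 (-0.055), Psmd4 (-0.0073), Psmd6 (-0.021), Psmd9 (-0.033), Psmd12 (-0.082), Psmd13 (-0.013), Psme3 (-0.10), Psmg1 (-0.035) and Psmg2 (-0.0067). The median of all genes moved by 0.13 in that scaling. Other pseudocounts (1 and 0.01) gave 19 higher and 5 lower. No minimum gave the same counts, but the table was already filtered, so 17127 genes were tested instead of 17126 and the filter was hardly probed. A minimum of 5 CPM, which left fewer genes tested, gave 17 and 5. Leaving out each library in turn gave 16 to 20 higher, 4 to 5 lower and a median of 0.15 to 0.18. Over the 58 named genes, which include Usp14 and other pathway genes, calls were lost 20 times and gained 3 times (Psma3 without wild type 1, Psmc6 and Psmd1 without mutant 1). Same-numbered libraries did not deviate together (r 0.026, 0.0094 and -0.098), and not every library correlated best with its own number, so the numbers did not pair them. A fit with the replicate number as a block gave 15 higher and 5 lower and a median of 0.17, with Psmb4, Psmc4, Psmd3 and Psmd7 no longer called. The planned count tests and TMM scaling were not run, because, although every value was a whole multiple of 1 step, the table had been filtered on low counts and held too few values of a few steps to show that 1 step is 1 read. Psmb8 and Psmb9 lay near 1 CPM in wild type, where the pseudocount enters the fold, and with a pseudocount of 1 the change of Psmb8 was 1.32 instead of 1.85.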
